A study of Homo sapiens with 6 samples.

Results

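The heat shock chaperones described here are 10 human genes: the J-domain proteins DNAJB1 and DNAJA1, the HSP70 protein HSPA8, the HSP70-related exchange factors HSPA4 and HSPH1, the HSP90 proteins HSP90AA1 and HSP90AB1, the small heat shock protein HSPB1, the co-chaperonin HSPE1, and the transcription factor HSF1. They were chosen from known heat shock genes with the LPS and control values of these same arrays already in view. Their LPS differences are therefore a description, and the adjusted p-values quoted only place a member within the fit over all 54613 tested probe sets. A gene was represented by the probe sets that the platform's annotation gives to its symbol alone, which yielded 22 probe sets for 9 of the 10 genes, out of 19775 genes in all. HSPA8 had 4 probe sets, each shared in the annotation with other symbols, and is not measured here. HSPE1 works in mitochondria and HSF1 is not a chaperone, so the name "cytosolic heat shock chaperones" holds for 7 of the 9 measured genes.

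The cells were BL-2, an established human line of Burkitt lymphoma, a B cell cancer. They were exposed to lipopolysaccharide (LPS), the bacterial endotoxin, for 6 h (3 arrays) or were left without treatment (3 arrays). The labels do not say that the samples of a group came from separate cultures, so the spread between them may be technical, and all come from a single cell line.

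Heat shock proteins keep other proteins folded. J-domain proteins hand unfolded clients to HSP70 and trigger its ATP hydrolysis, exchange factors release the nucleotide again, and HSP90 completes the folding of kinases, receptors and other signalling proteins. In unstressed cells HSF1 is held inactive by chaperones; when unfolded proteins draw these away, HSF1 forms trimers that bind heat shock elements, alternating inverted repeats of GAA and TTC, and raise transcription of chaperone genes. Dividing tumour cells, lymphoma cells among them, generally contain abundant HSP90 and constitutive HSP70.

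After LPS, DNAJB1 was higher by 0.54 on the log2 scale, or 1.45-fold, and both of its probe sets gave this value. It was the only one of the 9 measured genes past the threshold of the fit, an adjusted p under 0.05, by its brightest probe set, and 0 were lower. DNAJA1 was higher by 0.37 at 1 of its 2 probe sets and by 0.10 at the other. HSPH1 was at 0.11 by its brightest probe set and at 0.28 and 0.01 by the others. HSPB1 was at -0.24 (95% interval -0.45 to -0.03) and did not pass the threshold. HSP90AA1, HSP90AB1, HSPE1, HSPA4 and HSF1 differed by at most 0.13 in size at their brightest probe sets, with 95% intervals that all included 0. HSF1 itself, the factor named for driving these genes, was at -0.03.

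The heat shock elements of these promoters are shown for DNAJB1, the other J-domain gene DNAJA1 and both HSP90 genes, to show the letters that heat shock genes of different values in these data carry. Sequences are RefSeq promoter windows of GRCh38.p14, which run from 250 bases before to 50 bases after an annotated start. The windows of 9 of the 10 members were searched. HSF1 was left out of the search, so whether it carries such a run was not examined. The shares over all windows and genes were taken without that exclusion. Capitals mark runs of units searched on both strands, either GAANNTTC or TTCNNGAA, or a longer run in which a further unit follows after any 2 bases. Positions are counted from the start, with -1 the last base before it.
DNAJB1, chr19:14518411-14518500, minus strand, positions -103 to -14: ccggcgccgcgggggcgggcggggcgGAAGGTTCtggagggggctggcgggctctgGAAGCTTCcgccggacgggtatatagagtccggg
DNAJA1, chr9:33025273-33025302, plus strand, positions 1 to 30: gcgGAACTTTCCAGAAcgctcggtgagagg
HSP90AA1, chr14:102087081-102087170, minus strand, positions -126 to -37: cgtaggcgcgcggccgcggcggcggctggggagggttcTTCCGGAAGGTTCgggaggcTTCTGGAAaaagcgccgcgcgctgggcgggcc
HSP90AB1, chr6:44247766-44247855, plus strand, positions -177 to -88: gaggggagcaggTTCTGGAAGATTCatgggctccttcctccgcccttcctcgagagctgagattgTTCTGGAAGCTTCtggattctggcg

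A run of 3 units was found in a window of 4 of the 9 searched members: DNAJA1, HSPA8, HSP90AA1 and HSP90AB1. The share was 0.49% of all 35116 windows, or 0.608% of 27305 genes. A run of at least 2 units was found in 6 of the 9, adding DNAJB1 and HSPB1, against 13.5% of all windows, or 16.2% of genes. HSPA4, HSPH1 and HSPE1 had no run of 2 units in their windows, which says only that these letters are not in them. Both DNAJB1 runs shown are of 2 units, while DNAJA1 and both HSP90 genes carry runs of 3. The search took only exact GAA and TTC units, so a neighbouring unit with a changed letter was not counted in any gene. Whether the DNAJB1 elements are shorter than those of the other genes was therefore not tested. DNAJB1 and HSP90AB1 each have 3 annotated windows and HSP90AA1 has 2. The runs lie in 2 windows of DNAJB1 and in 1 each of HSP90AA1 and HSP90AB1.

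The level of 18 probe sets for hybridisation controls parted the arrays into 2 sets; these controls are bacterial and phage RNAs added to every sample. The sets are A (LPS 1, LPS 2 and control 1, mean 10.24 on the log2 scale) and B (LPS 3, control 2 and control 3, mean 10.57). The sets are not named in the labels, and each holds arrays of both groups. Array medians lay between 6.42 and 6.47. The B cell markers measured (5 of 6: MS4A1, CD79A, CD79B, PAX5 and CD22) averaged 10.61 to 10.67 on LPS arrays, against 10.65 to 10.79 on control arrays. Markers of monocytes (3 of 4 measured) averaged 6.12 to 6.19 against 6.13 to 6.21, and those of T and NK cells (4 of 4) 6.45 to 6.53 against 6.45 to 6.48. Those of epithelium and fibroblasts (4 of 4) averaged 6.72 to 6.77 against 6.69 to 6.77. None of these 16 markers passed the fit. The part of other cell types in the chaperone values was not tested.

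DNAJB1 encodes the heat-inducible J-domain partner of cytosolic HSP70, which sends clients to it for refolding. At its brightest probe set, 200666_s_at, the log2 expression values were 10.56, 10.40 and 10.29 on the 3 LPS arrays, against 9.75, 9.88 and 10.01 on the 3 control arrays. The lowest LPS value lay above the highest control value. The difference was 0.54 (SE 0.10, 95% interval 0.32 to 0.75), or 1.45-fold (1.24 to 1.69), with a limma adjusted p of 0.0496, just inside the threshold of 0.05.

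The second DNAJB1 probe set, 200664_s_at, read 9.94, 9.76 and 9.68 on the LPS arrays, against 9.19, 9.23 and 9.34 on the control arrays. Here too every LPS array stood above every control array. The difference was 0.54 (SE 0.095, limma adjusted p = 0.0307), or 1.45-fold. The 2 probe sets read the same arrays and are not separate replicates.

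Within array set A the DNAJB1 difference was 0.73 at the brightest probe set and 0.66 at the other, and within set B it was 0.35 and 0.39; the difference between the sets was not tested. Since no LPS value lay below a control value, the shared sign was fixed, and each within-set value rests on a single control (set A) or a single LPS array (set B). With array set in the fit as a block the difference stayed 0.54 (SE 0.086, limma adjusted p = 0.00101). Leaving out 1 array at a time gave 0.46 to 0.60, and the gene then passed only without LPS 3 (adjusted p = 0.0432). Its limma adjusted p was 0.312 without LPS 1, 0.251 without LPS 2, 0.0579 without control 1, 0.204 without control 2 and 0.147 without control 3.

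**Figure D1:**
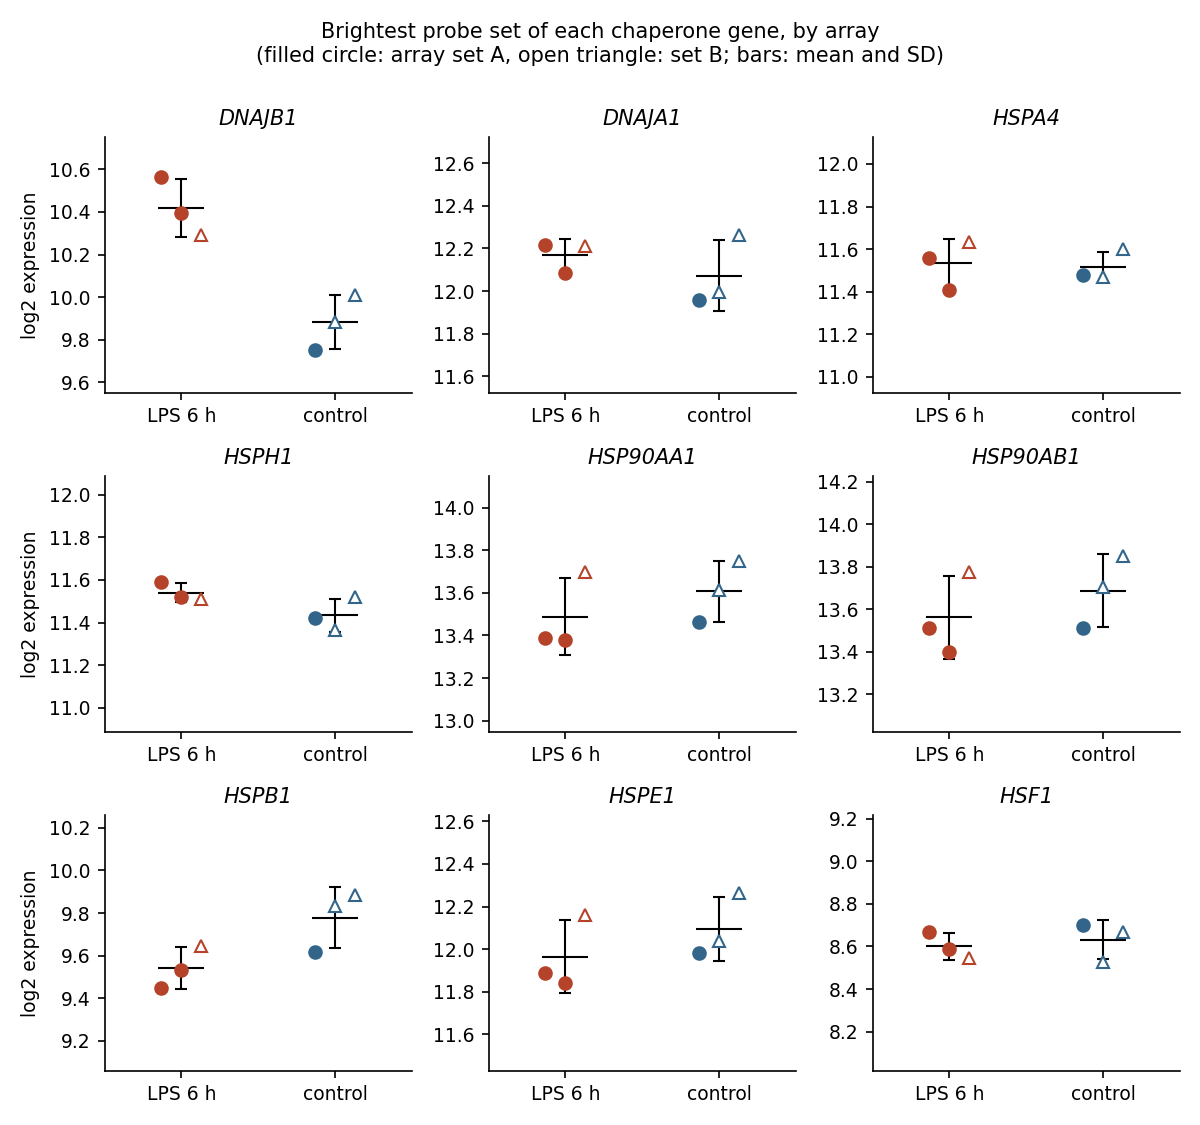
Log2 expression (y axis, each panel spanning the same range of 1.2 log2 units) of the brightest probe set of the 9 measured genes on the LPS arrays (left) and control arrays (right); filled circles are arrays of set A and open triangles of set B, and bars give the mean and SD of 3 arrays. DNAJB1 is the panel in which the groups do not overlap, while in the HSP90AA1, HSP90AB1 and HSPE1 panels the LPS 3 array of set B stands above the other LPS arrays.

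DNAJA1 encodes a J-domain protein of the other main class, which carries a farnesyl anchor and works with HSPA8. At 200880_at its values were 11.57, 11.54 and 11.56 on the LPS arrays, against 11.24, 11.15 and 11.19 on the control arrays. The groups were well apart, by more than the spread within each. The difference was 0.37 (SE 0.088, 95% interval 0.18 to 0.56), or 1.29-fold, and did not pass (limma adjusted p = 0.139). With the array sets as a block it was 0.36 and passed (limma adjusted p = 0.00447). Set A alone gave 0.32 and set B alone 0.40.

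The brighter DNAJA1 probe set, 200881_s_at, read 12.22, 12.08 and 12.21 on the LPS arrays, against 11.96, 12.00 and 12.26 on the control arrays. Control 3 was the highest of all 6 arrays, so the groups overlapped. The difference was 0.10 (SE 0.10, 95% interval -0.12 to 0.32). The probe sets of DNAJA1 thus disagree in size, and the value for the gene depends on which of them is read; their mean was 0.23.

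HSPA4 and HSPH1 belong to the HSP110 branch of the HSP70 family and act mainly as nucleotide exchange factors for HSP70. HSPA4 read 11.56, 11.41 and 11.64 at its brightest probe set on the LPS arrays, against 11.48, 11.47 and 11.60 on the control arrays. The groups overlapped, with a difference of 0.02 (95% interval -0.19 to 0.22). Its 3 other probe sets gave 0.16, 0.12 and -0.02, with overlapping groups in each.

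HSPH1 read 11.59, 11.52 and 11.51 at its brightest probe set on the LPS arrays, against 11.42, 11.36 and 11.52 on the control arrays. Control 3 lay among the LPS arrays, and the difference was 0.11 (95% interval -0.09 to 0.30). Its dimmest probe set, 235573_at, was the fourth member probe set whose groups did not overlap. It read 7.66, 7.71 and 7.62 on the LPS arrays, against 7.40, 7.36 and 7.40 on the control arrays. The difference there was 0.28 (SE 0.066, limma adjusted p = 0.136). The remaining HSPH1 probe set, 208744_x_at, gave 0.01, so the 3 probe sets of this gene also disagree in size.

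HSP90AA1 and HSP90AB1 encode the stress-inducible and the constitutive cytosolic HSP90. HSP90AA1 read 13.39, 13.38 and 13.70 at its brightest probe set on the LPS arrays, against 13.46, 13.61 and 13.75 on the control arrays. LPS 3 lay among the controls, and the difference was -0.12 (SE 0.11), a fold of 0.920 with a 95% interval from 0.780 to 1.09. HSP90AB1 read 13.51, 13.40 and 13.78 on the LPS arrays, against 13.51, 13.71 and 13.85 on the control arrays. Again LPS 3 was high and control 1 low, and the difference was -0.13 (SE 0.12), a fold of 0.916 with a 95% interval from 0.770 to 1.09. All 7 HSP90 probe sets lay between -0.13 and -0.03 with overlapping groups. These probe sets read 12.88 to 13.85, and 14.81 was the highest value in the table; whether bright probe sets were compressed was not tested.

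HSPB1 encodes the small heat shock protein HSP27, which holds unfolded proteins without using ATP. It has 1 probe set, which read 9.45, 9.53 and 9.64 on the LPS arrays, against 9.62, 9.83 and 9.89 on the control arrays. LPS 3 stood just above control 1, so the groups overlapped. The difference of -0.24 (SE 0.098, 95% interval -0.45 to -0.03) was the lowest among the members, and its limma adjusted p was 0.551. With array set as a block the difference was -0.17 (limma adjusted p = 0.429). Within set A it was -0.12 and within set B -0.21. The gene was higher in set B by 0.20 and did not pass there (limma adjusted p = 0.167).

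HSPE1 encodes the mitochondrial co-chaperonin HSP10, the lid of the HSP60 folding chamber. Its probe set read 11.89, 11.84 and 12.16 on the LPS arrays, against 11.98, 12.04 and 12.26 on the control arrays, with a difference of -0.13 (SE 0.11, 95% interval -0.37 to 0.11). The pattern over arrays was that of the HSP90 genes, with LPS 3 and control 3 highest.

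HSF1 is regulated mostly at the protein level, through trimer formation and phosphorylation, which arrays do not measure. It read 8.67, 8.59 and 8.55 on the LPS arrays, against 8.70, 8.53 and 8.67 on the control arrays. All LPS values lay within the range of the control values, with a difference of -0.03 (95% interval -0.21 to 0.15), and its other probe set gave -0.04 (95% interval -0.20 to 0.13).

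**Figure D2:**
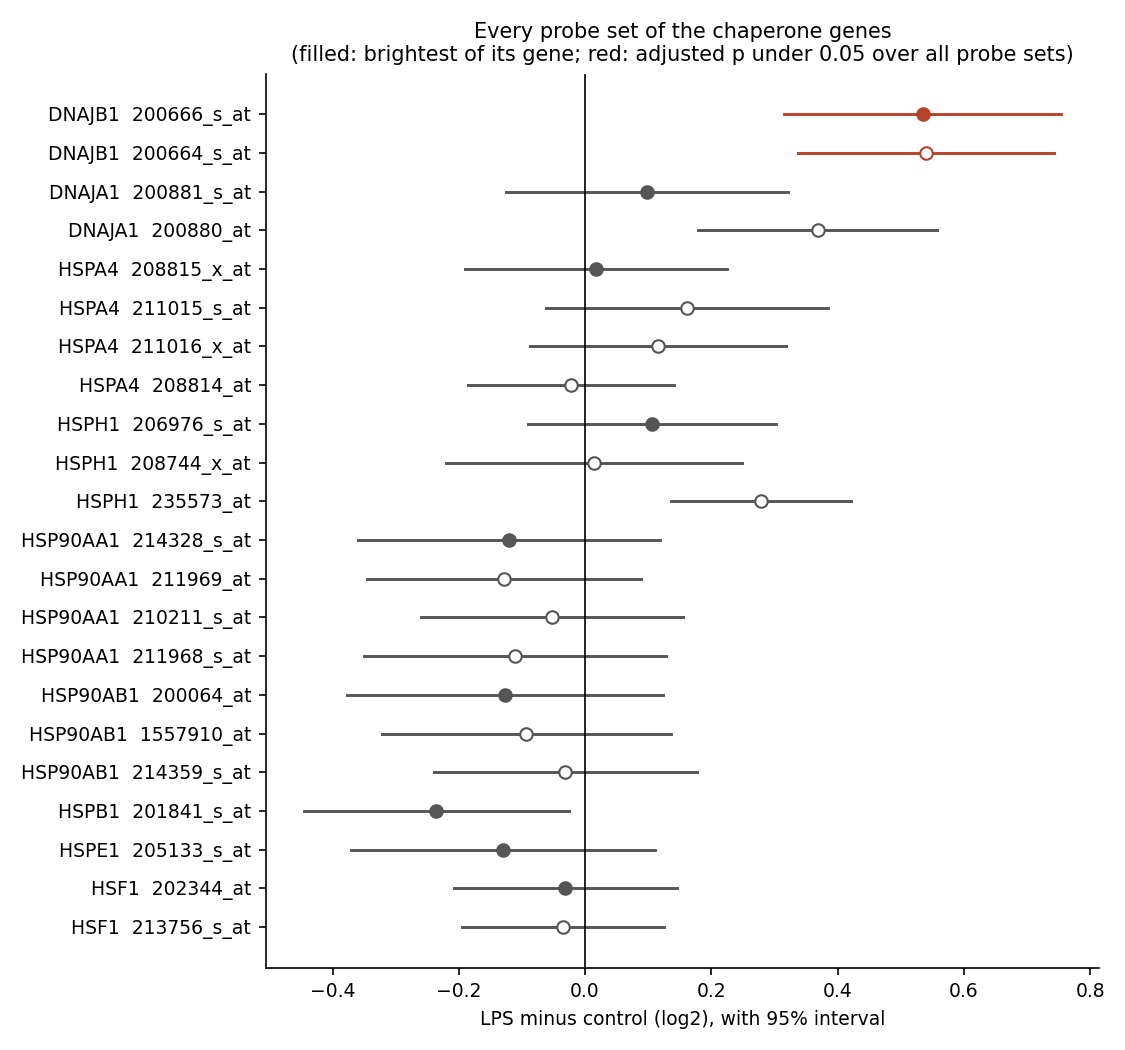
LPS minus control on the log2 scale (x axis) with 95% intervals for all 22 probe sets (rows, grouped by gene), filled where the probe set is the brightest of its gene and red where the adjusted p over all tested probe sets is under 0.05. Both DNAJB1 probe sets stand at 0.54, 1 DNAJA1 probe set at 0.37 and 1 HSPH1 probe set at 0.28, and all HSP90 probe sets lie between -0.13 and -0.03.

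By gene, 1 of the 9 measured members was higher past the threshold, where 0.182% of all genes were, and 0 were lower; in either direction 0.389% of all genes passed. Since the members were chosen with this contrast known, nothing is read from that share. The groups did not overlap in 1 of the 9 genes by the brightest probe set, against 15.7% of all genes, and LPS lay above control throughout in 4 of the 22 probe sets, of 3 genes, against 7% of all probe sets; nothing is read from these shares either. The members' median difference was -0.03 by gene and -0.03 by probe set, beside 0.00161 over all genes. Of the 22 probe sets, 10 lay above 0 and 12 below. With array set as a block 1 member gene passed, again DNAJB1, where 2.02% of all genes did.

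A comparison that the choice of members did not use is that between the array sets, though the block itself was chosen with earlier results known. With LPS in the fit, 4 of the 22 member probe sets were higher in set B past the threshold and 0 were lower, where 1.22% of all probe sets were higher and 4.54% passed in either direction. All 4 belong to the HSP90 genes. They read 13.19 to 13.85, while the shares given are over probe sets of all levels. A share among probe sets as bright was not computed, and whether bright probe sets differ between the sets as a whole was not tested. The brightest HSP90AB1 probe set was higher in set B by 0.29 (SE 0.055, limma adjusted p = 0.00152) and its second, 1557910_at, by 0.24 (adjusted p = 0.0102). The brightest HSP90AA1 probe set was higher by 0.27 (SE 0.054, limma adjusted p = 0.0033) and 211969_at by 0.19 (adjusted p = 0.0452). HSPE1 gave 0.23 and did not pass (limma adjusted p = 0.0547). The brightest HSP90AA1 and HSP90AB1 probe sets had Pearson's r of 0.96 and 0.97, over the 6 arrays and given without a test, with the level of the hybridisation controls that defined the sets.

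Genes other than the members differed between the sets too. Of the 96 measured genes of related chaperone lists described further on, 10 were higher in set B past the threshold and 4 lower. A share over all genes was not computed for this comparison, and the shares given above are over probe sets. The higher ones included UBB, which encodes ubiquitin, at 0.45 (limma adjusted p = 4.7e-06), HSPD1, the HSP60 partner of HSPE1, at 0.40 (adjusted p = 9.86e-06), and 6 chaperonin CCT genes between 0.21 and 0.30. These named genes are bright too, with group means of 12.09 to 13.96, so the limit given above for bright probe sets holds here as well.

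The HSP90AA1 probe set 211968_s_at ran the other way, at -0.21 (limma adjusted p = 0.0668). DNAJB1 showed 0.00334 between the sets at its brightest probe set (SE 0.086) and -0.04 at the other. In the fit with both terms the difference between array sets was larger in size than that between LPS and control in 16 of the 22 member probe sets, beside 54.4% of all probe sets. With array set as a block, the HSP90AA1 and HSP90AB1 differences after LPS were each -0.03 at the brightest probe set, against -0.12 and -0.13 without it, and that of HSPE1 was -0.05. Quantile normalisation without the block gave -0.04 for HSP90AA1, -0.03 for HSP90AB1 and -0.14 for HSPE1.

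**Figure D3:**
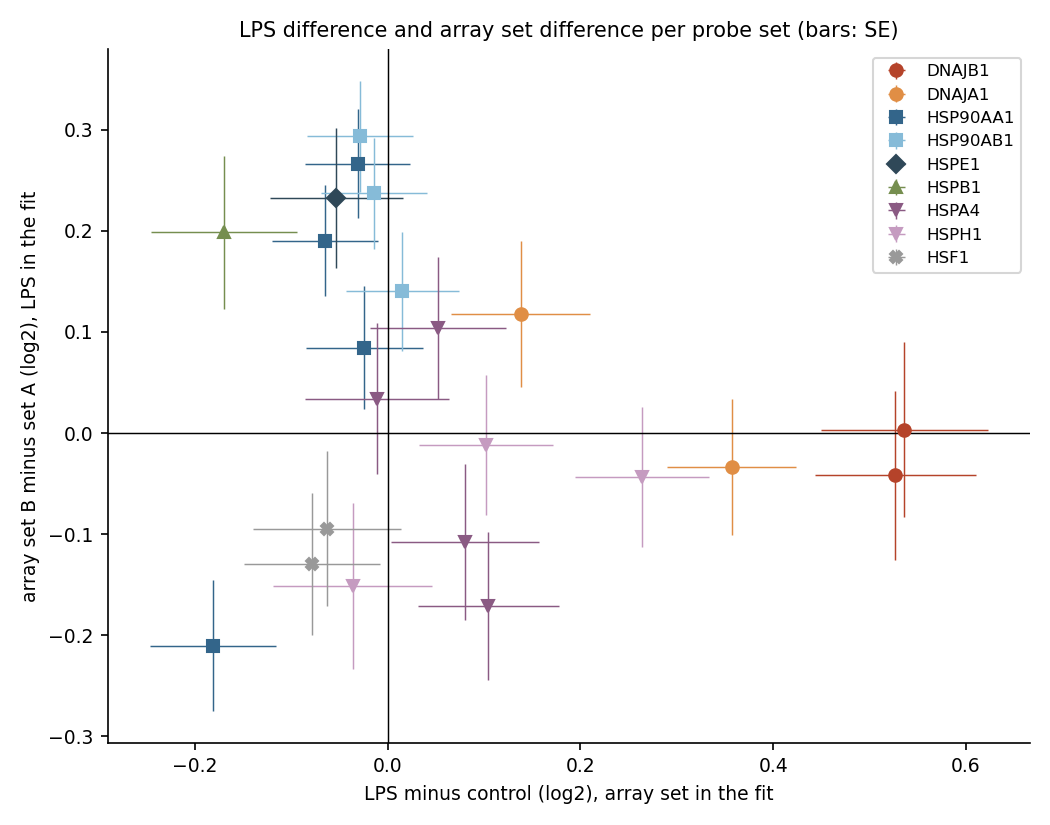
For each of the 22 member probe sets, LPS minus control (x axis, log2) and array set B minus set A (y axis, log2) from a single fit with both terms; bars are standard errors and colours and shapes mark the genes. Both DNAJB1 probe sets lie far along the LPS axis at 0.54 and 0.53 and near 0 on the set axis, while 6 of the 7 HSP90 probe sets lie near 0 on the LPS axis and between 0.08 and 0.29 on the set axis.

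Deviations from the group means over the 6 arrays, described without a test, divided the probe sets in the same way. The array set difference was not removed from these deviations, so they restate that comparison and are not a separate observation. Among the 8 probe sets of HSP90AA1, HSP90AB1 and HSPE1, Pearson's r between pairs had a median of 0.84 over 28 pairs. The exception was the HSP90AA1 probe set 211968_s_at, whose r was below 0 with all 7 others and reached -0.62; without it the lowest r was 0.48. The DNAJB1 probe sets had r = 0.95 with each other and a median of 0.10 with those 8. All of these points share the 6 arrays and their hybridisations.

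The rest of the folding machinery was read through 10 lists of 104 genes, of which 96 were measured; 0 passed the limma fit, while 16 had an unadjusted p under 0.05 (16.7%, against 9.56% of all genes). Their median difference was 0.02. HSPA1A and HSPA1B, the heat-inducible HSP70 genes whose products work with DNAJB1, had no probe set with a single symbol. The stress-inducible HSPA6 read 6.50 in both groups, close to the array medians of 6.42 to 6.47. No rise was seen there, though a small change could be missed at so dim a probe set. Among the 8 measured HSP70 genes the largest difference was that of HSPA14, a ribosome-associated HSP70, at 0.26 (limma adjusted p = 0.502; other probe sets 0.03 and -0.01).

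Of the 15 further J-domain genes 9 lay above 0 and 6 below, with a median of 0.02. DNAJB4, a close relative of DNAJB1, ran opposite to it. It read 8.36, 8.39 and 8.22 on the LPS arrays, against 8.76, 8.87 and 8.56 on the control arrays. Every LPS array lay below every control array, with a difference of -0.41 (SE 0.093, limma adjusted p = 0.116) and of -0.35 at its other probe set. Blocking on array set brought its limma adjusted p to 0.00599. DNAJA2, a relative of DNAJA1, gave 0.29 (adjusted p = 0.359; adjusted p = 0.0297 when blocked), and 0.23 at its other probe set.

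Among other genes known to be induced by heat, IER5, a regulator of HSF1 phosphorylation, came nearest to the threshold. It read 10.26, 10.21 and 10.17 on the LPS arrays, against 9.77, 9.79 and 9.87 on the control arrays. The groups were apart by a difference of 0.40 (SE 0.086, limma adjusted p = 0.0841), and the adjusted p was 0.00416 in the fit with array sets. The median of the 11 measured genes of that list was 0.03, with 7 above 0, and the exchange factor BAG3 gave 0.14 (adjusted p = 0.699).

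The HSP90 cochaperones (16 measured) had a median of -0.00263, with CHORDC1 the largest at 0.21 (limma adjusted p = 0.652) and at -0.13 by its other probe set. The nucleotide exchange factors (7 measured) had a median of 0.10, led by BAG2 at 0.18 (limma adjusted p = 0.642; other probe sets -0.03 and 0.00350). The chaperonin CCT and prefoldin genes (12 measured), which fold actin and tubulin, had a median of -0.03, with PFDN4 the largest at 0.17 (adjusted p = 0.722; other probe sets 0.11 and -0.04). The 7 measured small heat shock protein genes had group means of 6.15 to 6.47, at or near the array medians or below, so their median difference of 0.01 and that of CRYAB, -0.09 (limma adjusted p = 0.783), describe dim probe sets. Heat shock factors and their binding proteins (4 measured) had a median of -0.10, with HSBP1 at -0.13 (adjusted p = 0.825) and at 0.09 by its other probe set. Mitochondrial chaperones and proteases (10 measured) had a median of 0.06, with GRPEL2, an exchange factor of mitochondrial HSP70, at 0.30 (limma adjusted p = 0.355; adjusted p = 0.0297 with the array sets as a block).

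The list with the largest median was that of the endoplasmic reticulum, at 0.25, with 9 of 10 genes above 0 and 7 at an unadjusted p under 0.05. Of all genes 9.56% had such a p. HSP90B1, the HSP90 of that compartment, read 9.93, 10.06 and 9.79 on the LPS arrays, against 9.67, 9.31 and 9.46 on the control arrays. The difference was 0.45 (SE 0.11, limma adjusted p = 0.142), while its dimmer probe set gave -0.10. In the fit with array sets it was 0.37 and passed (limma adjusted p = 0.0141), as did HSPA5, the HSP70 of that compartment, at 0.37 (adjusted p = 0.00638; 0.40 and adjusted p = 0.158 without the block). With array set as a block the list median was 0.19, while set A alone gave 0.11 and set B alone 0.29. HYOU1 and CALR of this list were lower in set B, at -0.30 (limma adjusted p = 0.0231) and -0.34 (adjusted p = 0.0126). Their LPS differences were 0.33 and 0.29 without the block, and 0.23 and 0.18 with it. How much of the list's difference goes with the array sets was not tested. The cytosolic HSP90 genes lay between -0.13 and -0.03 at all their probe sets; the difference between the compartments was not tested.

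**Figure D4:**
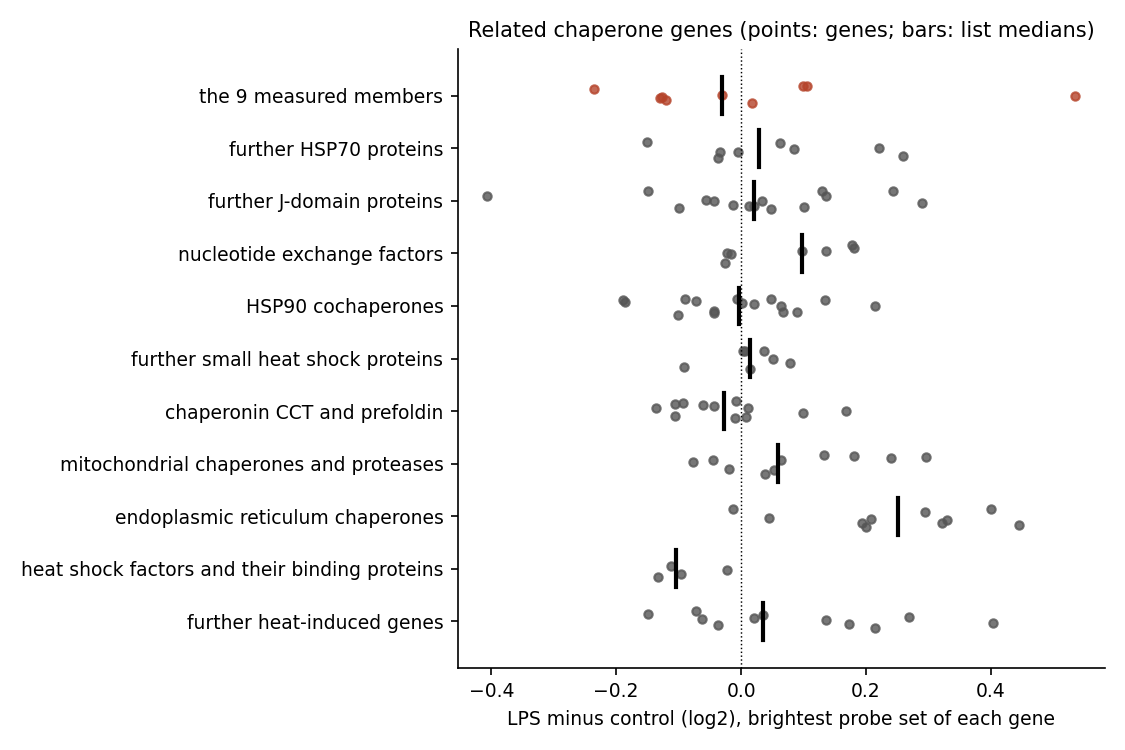
LPS minus control on the log2 scale (x axis) for the 9 measured members (top row, red) and the genes of 10 lists of related chaperones (grey), each point a gene at its brightest probe set and each black bar a median; points are shifted vertically for visibility. DNAJB1 at 0.54 stands to the right of every other gene shown, and the endoplasmic reticulum list has the rightmost median at 0.25.

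Outside these lists, the genes whose values over the 6 arrays were most like those of DNAJB1 were DR1, TAF1A, B3GNT2, FHIP2A and LINC00304, with Pearson's r of 0.986 to 0.994. They were the 5 highest of all genes, a choice that by itself gives high values with 6 points, and their LPS differences ran from 0.09 to 0.33. Those most like the mean profile of the 9 members were PUS3, GFOD3P, TMPO, TM2D3 and TNFSF10, with r of 0.970 to 0.993 and LPS differences of 0.00913 to 0.05. DNAJB1 had r = 0.23 with that mean profile and HSP90AB1 r = 0.81, so the mean of the members does not describe DNAJB1.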

How the data were processed

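The deposited table holds 1 value per probe set and array of 6 arrays, with 0 further sample columns. The authors deposited the values on what was taken to be the log2 scale, a base inferred from their range of 5.46 to 14.81; background correction, summary and normalisation are not given in the sources used here. Biotin labelling by in vitro transcription is stated per the labels' protocols.

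The 62 control probe sets were left out and 54613 tested in R 4.3.3 with limma 3.58.1 (group as the only term, trended empirical Bayes, two-sided tests, Benjamini-Hochberg over all, threshold 0.05). The steps were tested on simulated data. Names came from the platform's annotation, updated through gene identifiers with RefSeq GRCh38.p14 (41037 of 41091 probe sets with 1 symbol matched); the brightest over 6 arrays represented a gene. Array sets were parted at the widest gap, 0.22, in the added hybridisation controls (next widest 0.081). Precision is limited by 3 arrays a group; the members' median standard error was 0.097.

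The members, lists and array set block were chosen with earlier results of these data known. Named were all members, the largest difference of each list and the 5 genes most like DNAJB1 or the members' mean. DNAJA2, BAG3, HSPA6, HSPA5, UBB, HSPD1, HYOU1, CALR and DEDD2 were named after their values were seen. Probe sets that share sequence with the many copies of HSP90 and HSPE1 genes may cross-hybridise. Protein sequences were not used here.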

Additional observations from a re-analysis of the deposited data

How the results depend on the processing

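Whether the numbers 1 to 3 pair the samples cannot be told from 3 arrays a group. Deviations from the group means correlated at 0.44, -0.04 and 0.23 for equal numbers. For unequal numbers they ran from -0.47 (LPS 3 with control 1) to 0.32 (LPS 3 with control 2). With a replicate block 4 genes of the fixed lists passed (DNAJB4, HSPA5, HSP90B1 and IER5) in place of 0, and 3 member probe sets in place of 2, while 1.37% of all genes passed in place of 0.389% and 0.912% of all probe sets in place of 0.264%. With array set as a block 7 list genes passed (those 4 with DNAJA2, GRPEL2 and DEDD2), where 2.02% of all genes passed. The count was 2 with array weights, and 1 each with quantile normalisation, the filter to probe sets above the median level, no intensity trend, probe sets averaged by gene and a threshold of 0.1. Of all genes 0.824% passed with array weights. In the settings with a count of 1, it was 0.435% (probe sets averaged by gene) to 0.845% (quantile normalisation). DNAJB1 was the 1 member gene higher in all of these settings and with median centring. Without probe sets ending in _x_at or _s_at, 0 member genes and 0 member probe sets passed, because both DNAJB1 probe sets are among those left out; DNAJA1 and HSPH1 are then read at 0.37 and 0.28. Leaving out each array in turn, 0 to 1 member genes were higher, 0 to 2 member probe sets passed and 0 to 3 list genes did. The 3 were HSPA5, HSP90B1 and HYOU1 without control 1. Of all genes 0.0303% (without LPS 2) to 1.02% (without control 1) passed in those fits, and of all probe sets 0.0183% to 0.685%. In all these settings 0 member genes were lower past the threshold, and 0 called values changed sign. Values within each array set were added after the data were seen. Of 159 values of member differences under the alternatives, 149 moved by less than the spread between replicates or kept their call. DNAJB1 was the only member gene with a call to lose. The 5 values that lost a call were all those of DNAJB1 with 1 array left out. A further 5 moved by more than the spread, the within-set values of DNAJB1 among them.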
